A study of Mus musculus with 6 samples.

Results

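The genes described here encode the proteins of the large and small subunits of the cytosolic ribosome. Members were found by symbol among the 19790 genes of the deposited table, as Rpl or Rps followed by a number and at most a letter a, l, x or y, together with *Rplp0*, *Rplp1*, *Rplp2* and *Rpsa*. Of 81 symbols that matched, *Rps4l* is annotated as a transcribed pseudogene and was left out, which leaves 80 genes, 49 of the large subunit including the 3 of the P stalk and 31 of the small subunit. RNA was sequenced from gonadal fat, a visceral white adipose depot (gWAT), of 6 wild-type C57BL/6 mice. The 3 control mice were fed a normal chow diet (NCD) and the other 3 a high-fat diet (HFD), each for 8 weeks. The methods state that only males were used and that HFD feeding began at 8 weeks of age, while the sample labels give 6 weeks. No allele was altered and no agent other than the diet was given, and the design calls the mice of a diet biological replicates.

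Ribosomes build every cellular protein, and their own proteins are made in step with each other and with ribosomal RNA, so that the subunits can be assembled in fixed proportions. In mammals the mRNAs of ribosomal proteins begin with a run of pyrimidines, the terminal oligopyrimidine (TOP) motif, through which LARP1 and the nutrient-sensing kinase complex mTORC1 control their translation. That control acts on ribosome loading, which RNA-seq does not measure, while the level of the mRNAs themselves is known for being high and even across tissues, which is why several of them serve as reference genes in quantitative PCR. The comparison asks whether the mRNA levels of these genes in gWAT differed between the diets.

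Libraries held between 49575113 and 66360046 counts, and the members together between 1026055 and 1841211 counts per library. Transcripts of 11 genes of seminal vesicle secretion took 58.6% of the counts in NCD replicate 1, against 11.2% in NCD replicate 2, 2.30% in NCD replicate 3 and at most 8 counts in an HFD library, so counts and fitted values are given with all mice and, for the main results, also without NCD replicate 1. Levels are given as CPM, which are counts divided by the library total in units of 1e6 counts and by edgeR's TMM factor. That factor was 0.496 for NCD replicate 1 and between 1.02 and 1.27 for the other mice. All 12 adipocyte markers were detected in every library, and their summed level was 6078 CPM in NCD replicate 1, 22889 and 31518 in NCD replicates 2 and 3, and between 12719 and 17001 on HFD. The 12 macrophage markers summed to between 773 and 1026 CPM on NCD and to between 2642 and 5252 on HFD. The part of these cell types and of the seminal vesicle RNA in the values below was not tested. In bulk tissue a change in the number of cells of a type and a change in RNA per cell cannot be told apart.

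Values of 3 mice are given in the order of their replicate numbers. The share of all counts that fell on members was 1.55%, 2.22% and 2.23% on NCD and 2.36%, 2.77% and 3.27% on HFD. On this scale every HFD library lay above every NCD library, with p = 0.1 in the exact two-sided permutation test over mice, which cannot go lower with 3 mice in each group. Once the 11 seminal vesicle genes were taken out of the total, the shares were 3.73%, 2.50% and 2.28% on NCD and 2.36%, 2.77% and 3.27% on HFD, and the diets overlapped (exact permutation p = 1). The library with the lowest share of all counts thus had the highest share of the remaining counts. On the TMM scale the members summed to 31242, 21714 and 20766 CPM on NCD and to 20431, 22071 and 25844 CPM on HFD. The mean was 24574 ± 5794 CPM for the NCD mice (SD, n = 3) and 22782 ± 2776 CPM for the HFD mice (SD, n = 3), a log2 ratio of -0.11 with an exact permutation p of 0.8. Without NCD replicate 1 the log2 ratio was 0.10 (exact permutation p = 0.6, where 0.2 is the smallest value that 2 mice against 3 allow).

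Per kilobase of exon, 75 members had mean levels between 39.4 and 880 CPM. The length was that of all annotated exons of a gene together, so the order depends in part on the annotation. For *Rpsa* it was 2551 bases, with a coding sequence of 888. *Rplp1*, a protein of the P stalk that recruits elongation factors to the ribosome, had the highest level, with a mean of 880 CPM per kilobase over the 6 mice. It was followed by *Rpl10*, a protein that joins the large subunit late in its maturation, with 712 CPM per kilobase, by *Rps12* with 661, by *Rpl41*, the shortest ribosomal protein, with 617, and by *Rpl23a*, a protein at the exit of the peptide tunnel, with 596. At the other end, 5 members lay far under the rest. *Rpl34* and *Rpl26*, which encode core proteins of the large subunit, had 8.72 and 0.819 CPM per kilobase, and both are returned to below with their copies. *Rpl32l* had 0.453 CPM per kilobase. RefSeq does not annotate it as a pseudogene, so it was kept as a member. In GENCODE vM21 no coding sequence was found for it, and it is among the copies of *Rpl32*, which are all called pseudogenes there. *Rpl39l*, a paralog of *Rpl39* known from the testis, had no count in NCD replicates 1, 2 and 3 or in HFD replicate 1 and 9 counts in each of HFD replicates 2 and 3. *Rpl3l*, the paralog of *Rpl3* known from skeletal and heart muscle, had 0, 7 and 6 counts on NCD and 0, 0 and 4 on HFD. Where a library holds none of these reads, a count of 0 allows up to 3 counts. These last 3 genes did not pass the filter on low counts, so 77 of the 80 members were tested. *Rps27l*, the paralog of *Rps27*, was measured at 128 CPM per kilobase, in the range of the common members.

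**Figure D1:**
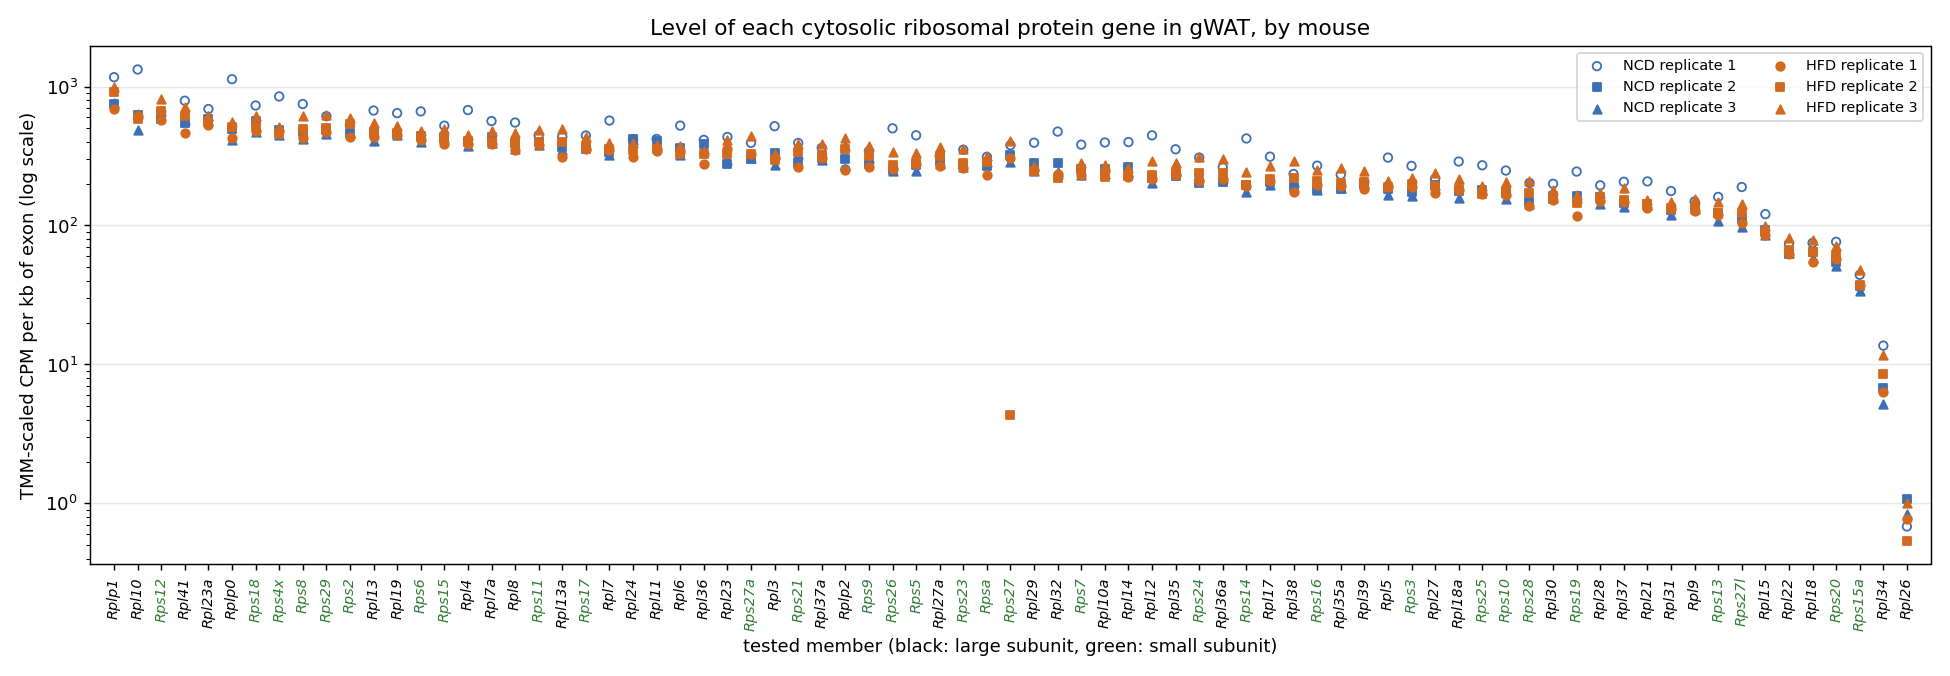
Level of the 77 tested members in TMM-scaled CPM per kilobase of exon (log scale), ordered by mean, with a point for each of the 6 mice. *Rpl34* and *Rpl26* fall away at the right, and *Rps27* in HFD replicate 2 lies far under its other 5 points.

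No member was called between the diets. With all 6 mice, the quasi-likelihood test of edgeR, adjusted by Benjamini-Hochberg over the 15241 genes tested, called 0 of 77 members at an adjusted p under 0.05, where 7.47% of all genes tested were called, 5.58% higher and 1.90% lower on HFD. At an unadjusted p under 0.05 it was again 0 of 77 members, against 29.7% of all genes. The smallest adjusted p of a member was 0.268. DESeq2 and limma on log2(CPM + 1) also called 0 members, while they called 25.6% and 7.55% of all genes, and 0 members had an unadjusted p under 0.05 in either, against 35.9% and 27.1% of all genes. With NCD replicate 1 left out, edgeR called 0 of 77 members, against 20.9% of 15510 genes (10.7% higher and 10.1% lower), and 0 members had an unadjusted p under 0.05, against 37.6% of genes. A p above the threshold does not show that a gene was equal on the diets, so the intervals were counted as well. The 95% interval of the log2 fold change lay within a 2-fold change in either direction for 66 of the 77 members with all mice and for 74 of 77 without NCD replicate 1. It lay within 1.5-fold for 19 and 38 members. Over all genes tested, the interval lay within 2-fold for 5810 of 15241 with all mice and for 7517 of 15510 without NCD replicate 1. It lay within 1.5-fold for 1849 and 3428 of these genes. The 3 members whose interval reached past 2-fold without NCD replicate 1 were *Rps27*, *Rpl26* and *Rpl34*, named for that after their values were seen.

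The direction of the members depended on NCD replicate 1, and also on other choices of mice and scaling. With all mice the median log2 fold change (HFD over NCD) was -0.08 over the members and -0.08 over all genes tested, and 25 of 77 members were above 0. Without that library the median was 0.14 over the members and 0.02 over all genes, and 66 of 77 members were above 0. The estimate changed sign for 41 of the 77. Of the 77 members, 51 had their highest value of the 6 mice in NCD replicate 1 and 24 in HFD replicate 3. Among the other 5 mice, HFD replicate 3 held the highest value of 68 members, and NCD replicate 3 and HFD replicate 1 held the lowest value of 32 members each. Without HFD replicate 3 and with NCD replicate 1 kept, the median over the members was -0.16, and 4 of 78 members were above 0. Without HFD replicate 1 it was 0.009, and 42 of 78 members were above 0. With all 6 mice and the seminal vesicle genes taken out of the total it was 0.010, and 41 of 77 were above 0.

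**Figure D2:**
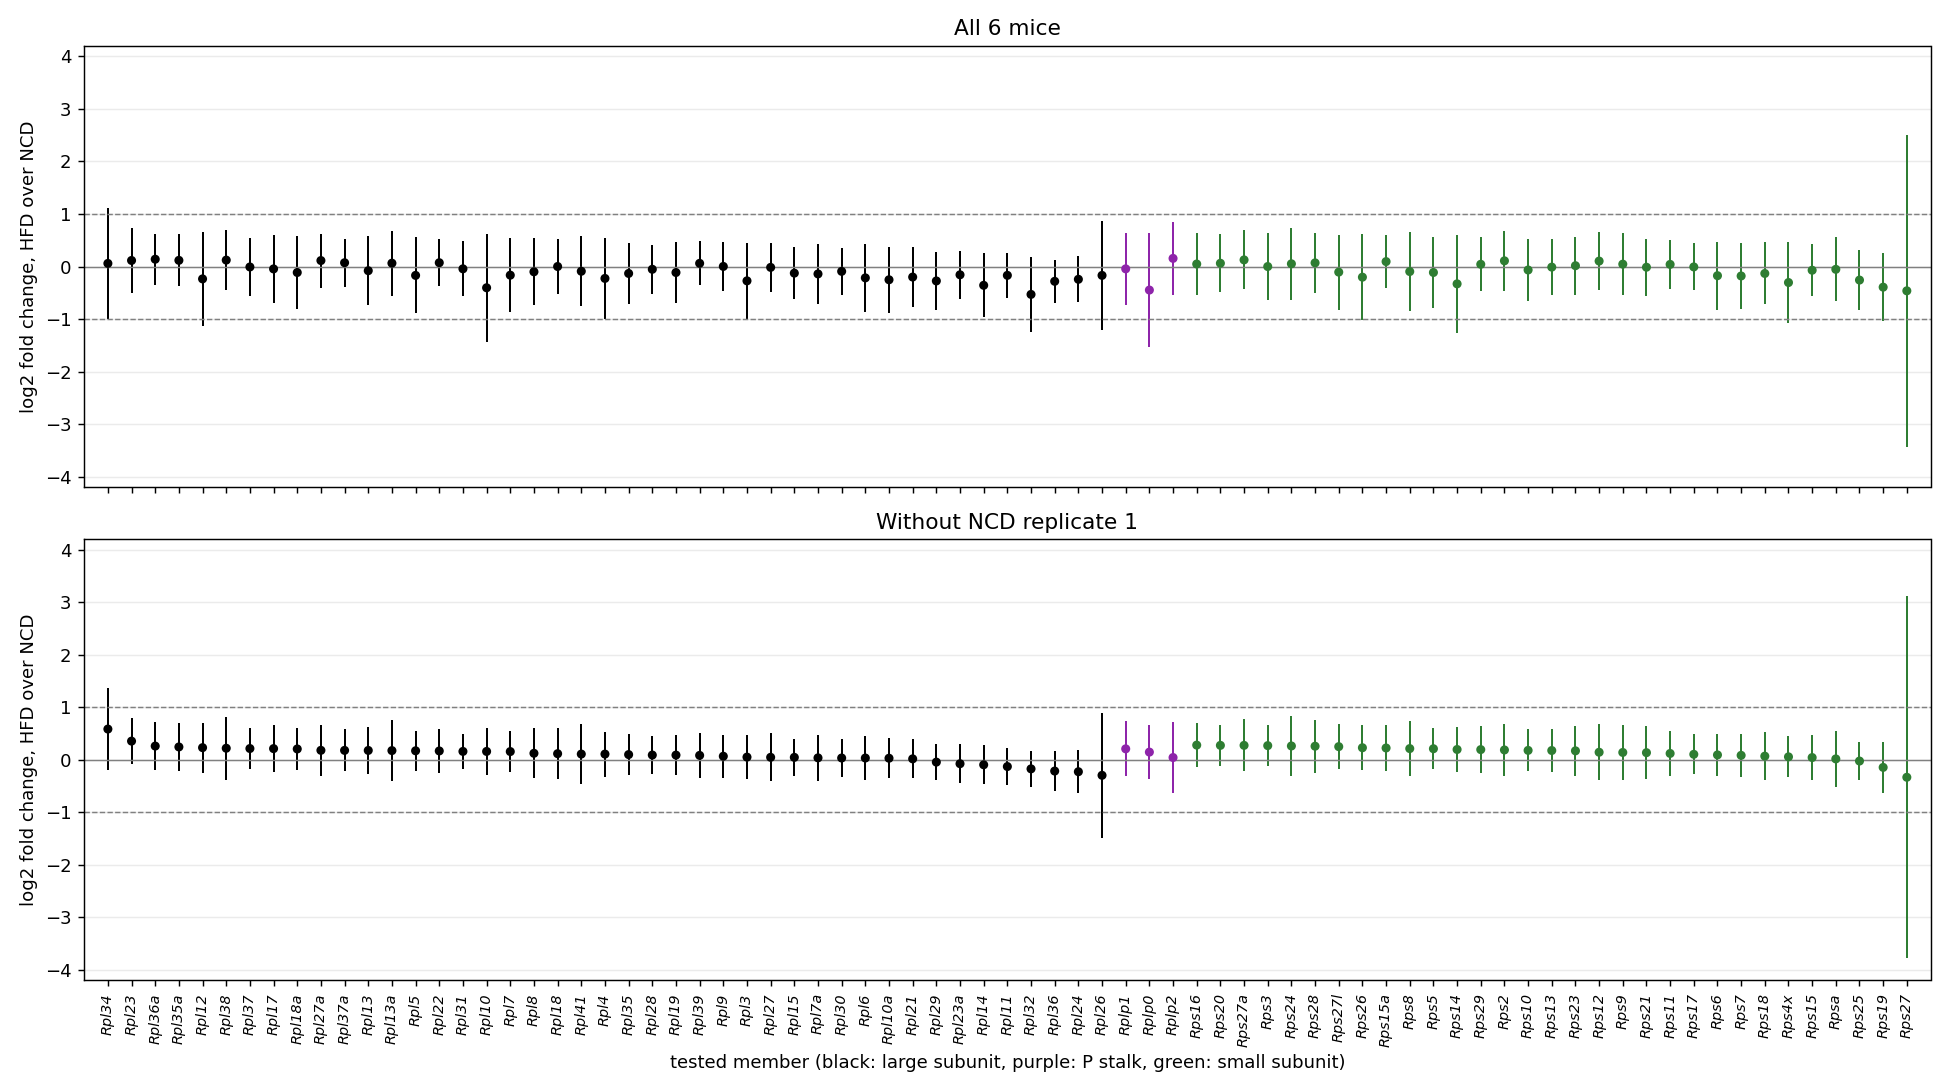
Log2 fold change (HFD over NCD) of the 77 tested members with its 95% interval, with all 6 mice above and without NCD replicate 1 below, ordered by the values of the lower panel within the large subunit, the P stalk and the small subunit. Dashed lines mark a 2-fold change. No member passed the adjusted threshold in either panel, and the interval of *Rps27* spans -3.76 to 3.10 in the lower panel.

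Taking the values of single mice, NCD and HFD did not overlap for 4 of 77 members, all lower on HFD, where they did not overlap for 39.2% of all genes tested, 20.5% higher and 18.7% lower on HFD. These 4 genes were picked out by that count, after their values were seen, and all encode large subunit proteins. *Rpl32* was measured at 456, 270 and 233 CPM on NCD and at 224, 212 and 227 CPM on HFD. *Rpl11* was measured at 349, 336 and 324 CPM on NCD and at 287, 295 and 316 CPM on HFD. *Rpl24*, a protein of the face that meets the small subunit, was measured at 283, 284 and 277 CPM on NCD and at 210, 235 and 267 CPM on HFD. In *Rpl32* the nearest mice of the diets stood at 233 and 227 CPM, and in *Rpl24* the 3 NCD values were close together while those on HFD spread downwards. *Rpl36* was measured at 158, 148 and 136 CPM on NCD and at 106, 126 and 132 CPM on HFD. The log2 fold changes of *Rpl32*, *Rpl11*, *Rpl24* and *Rpl36* were -0.53, -0.17, -0.24 and -0.28, with adjusted p-values from edgeR of 0.268, 0.527, 0.383 and 0.287. In the fit without NCD replicate 1 they were -0.17, -0.13, -0.22 and -0.21, so the value of *Rpl32* depended on that library. Among the other 5 mice the diets did not overlap for 19 of 77 members, 15 higher and 4 lower on HFD, against 57.1% of all genes, 27.9% higher and 29.1% lower.

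The P stalk is the flexible arm of the large subunit, built from P0, P1 and P2, that activates the GTPases of translation. *Rplp0* (NCBI gene 11837), its anchor, was measured at 1534, 673 and 560 CPM on NCD and at 581, 694 and 753 CPM on HFD. The mean was 923 ± 533 CPM (SD, n = 3) for NCD, where replicate 1 stood far above the others, and 676 ± 87.1 CPM (SD, n = 3) for HFD. Its log2 fold change was -0.45 (95% interval -1.52 to 0.62, edgeR adjusted p = 0.522) with all mice and 0.15 (-0.35 to 0.64, edgeR adjusted p = 0.627) without NCD replicate 1. *Rplp2*, its partner in the stalk, had its lowest NCD value in replicate 1, at 267 CPM against 316 and 393 in the other NCD mice and 262, 375 and 449 on HFD. The diets overlapped for all 3 stalk genes. *Rplp1* was measured at 582, 373 and 382 CPM on NCD and at 345, 458 and 494 CPM on HFD, with a log2 fold change of -0.04 with all mice and 0.21 without NCD replicate 1, where *Rplp2* had 0.15 and 0.05.

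The members differed in how high they stood in NCD replicate 1. Taken as log2(CPM + 1) against the mean of the other 5 mice, that library was higher by 1.24 for *Rplp0*, by 1.18 for *Rpl10*, by 1.08 for *Rps14* and by 0.97 for *Rpl32*, and the difference was -0.40 for *Rplp2*. *Rps12* and *Rpl39* differed there by 0.01 and -0.00. *Rps27* also stood at 1.35 in this measure, which its low value in HFD replicate 2 entered. *Rpl10* was measured at 1197, 560 and 440 CPM on NCD and at 552, 531 and 576 CPM on HFD, so that the 5 other libraries differed little beside the first. *Rps14* and *Rpl39* are named here for where they stood in that order.

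*Rpl5* and *Rpl11* encode the proteins that carry the small RNA of the large subunit and that, when free of ribosomes, bind MDM2 and stabilise p53. *Rpl5* was measured at 630, 372 and 341 CPM on NCD and at 385, 385 and 424 CPM on HFD. Its log2 fold change was -0.17 with all mice and 0.17 without NCD replicate 1 (edgeR adjusted p = 0.722 and 0.430). *Rpl11* kept a negative value in both, at -0.17 and -0.13 (edgeR adjusted p = 0.527 and 0.536), as its NCD replicate 1 value was close to those of the other NCD mice.

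*Rps27a* encodes a small subunit protein that is made as a fusion with ubiquitin and cut free afterwards. It was measured at 348, 265 and 273 CPM on NCD and at 288, 290 and 389 CPM on HFD, with overlapping diets. Its log2 fold change was 0.13 with all mice and 0.28 without NCD replicate 1 (edgeR adjusted p = 0.730 and 0.341).

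Of 7 genes listed as ribosomal but outside the pattern, 0 passed edgeR's adjusted threshold in either fit. DESeq2 called 1 of them lower with all mice, where it called 25.6% of all genes in either direction. In each edgeR fit 2 of the 7 had an unadjusted p under 0.05, beside 29.7% and 37.6% of all genes. With all mice the diets did not overlap for 2 of the 7, both lower on HFD, beside 39.2% of all genes, 18.7% lower. The log2 fold changes of the 7 ran from -0.61 to 0.13 with a median of -0.14. *Rpl36al*, a paralog of *Rpl36a*, had the lowest, at 178 CPM in NCD replicate 1, 91.3 and 83.3 CPM in the other NCD mice and 58.7, 73.7 and 99.1 CPM on HFD, and without NCD replicate 1 its value was -0.16. *Rpl22l1*, a paralog of *Rpl22*, did not overlap, as its lowest NCD mouse stood at 41.4 CPM and its highest HFD mouse at 38.7 CPM. Its log2 fold change was -0.42 with all mice and -0.46 without NCD replicate 1 (edgeR adjusted p = 0.148 and 0.0955). *Rps3a1*, a core small subunit protein, had log2 fold changes of 0.12 and 0.24 in these fits. *Rack1*, the signalling scaffold on the head of the small subunit, had -0.14 and 0.29, *Fau*, which encodes a small subunit protein, 0.13 and 0.34, and *Rpl7l1*, a paralog of *Rpl7*, -0.08 and -0.10, and the diets overlapped for these 4 genes with all mice.

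The members were then compared with each other, with the library total replaced by the summed counts of the members. On this scale too edgeR called 0 of 77 members, where 1.13% of all genes were called, and 0 members had an unadjusted p under 0.05, against 22.2% of genes. Without NCD replicate 1 it was 0 of 77 members at either threshold, against 14.4% and 32.5% of all genes. The share of a member in the member total differed by a median of 1.27-fold between its highest and lowest mouse, and by less than 1.5-fold for 67 of 77 members. The largest estimates upwards were those of *Rpl23* (0.23), *Rpl36a* (0.22), *Rpl34* (0.21), *Rps27a* (0.21) and *Rpl35a* (0.20), and the largest downwards those of *Rps27* (-0.40), *Rpl32* (-0.38), *Rps19* (-0.28), *Rplp0* (-0.27) and *Rpl14* (-0.24). *Rplp0* moved to 0.03 without NCD replicate 1, while *Rpl32*, *Rps19* and *Rpl14* stayed at -0.27, -0.27 and -0.20. *Rpl23* stayed at 0.24 on this scale without NCD replicate 1. It was measured at 459, 295 and 311 CPM on NCD and at 373, 345 and 435 CPM on HFD. On the TMM scale it had the smallest adjusted p of a member without NCD replicate 1. Its log2 fold change there was 0.36 (95% interval -0.05 to 0.77, edgeR adjusted p = 0.177). *Rps19*, a small subunit protein known for its mutation in Diamond-Blackfan anaemia, was measured at 418, 277 and 269 CPM on NCD and at 198, 249 and 286 CPM on HFD. *Rpl14* was measured at 402, 267 and 245 CPM on NCD and at 225, 227 and 261 CPM on HFD. For both genes HFD replicate 3 lay within the range of the NCD mice. *Rpl36a* ranged from 99.0 to 127 CPM on NCD and from 104 to 146 CPM on HFD, and *Rpl35a* from 151 to 189 and from 156 to 213.

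*Rps27*, *Rpl34* and *Rpl26* have near-identical copies that hold many counts. Ribosomal protein genes have left many copies in the genome, made by reverse transcription of their mRNAs and therefore without introns, and reads from a gene and a near-identical copy cannot be told apart with certainty. Of 79 members with a coding sequence in GENCODE vM21, 73 had a copy among its annotated transcripts at 95% identity or more over at least 90% of the coding sequence, with a median of 5 copies and up to 56, for *Rpl21*. Of these 552 copies 535 were called pseudogenes. Of all 552 copies, whether so called or not, 17 had a row of their own in the count table, for 16 members. The counts of a member are therefore uncertain to the extent that its copies took reads.

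*Rps27* (NCBI gene 57294, GRCm38, chr3:90212667-90213648, minus strand) encodes a small subunit protein with a zinc finger. *Rps27rt* (chr9:114982366-114982739, minus strand) is its copy on another chromosome, with a coding sequence identical over all 255 bases. *Rps27l* (chr9:66944624-66949522, plus strand) is a paralog with introns that differs at 61 of the 255 bases and so is 76.08% identical. The coding sequences are shown because they set which reads can be assigned. The first stands for *Rps27* and *Rps27rt* alike, and capitals mark the bases of *Rps27l* that differ from it.
Rps27 and Rps27rt: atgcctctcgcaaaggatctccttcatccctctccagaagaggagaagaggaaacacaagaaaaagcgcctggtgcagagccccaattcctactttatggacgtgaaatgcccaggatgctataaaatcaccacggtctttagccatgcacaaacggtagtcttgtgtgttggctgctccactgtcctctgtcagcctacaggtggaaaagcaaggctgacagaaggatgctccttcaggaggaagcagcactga
Rps27l: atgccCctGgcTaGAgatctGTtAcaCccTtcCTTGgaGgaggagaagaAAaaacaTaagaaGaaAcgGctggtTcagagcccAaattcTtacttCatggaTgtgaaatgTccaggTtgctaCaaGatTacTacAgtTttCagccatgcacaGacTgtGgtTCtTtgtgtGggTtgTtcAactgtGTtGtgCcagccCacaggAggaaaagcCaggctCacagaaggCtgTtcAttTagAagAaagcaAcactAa

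*Rps27* received 5743, 8849 and 7085 counts on NCD and 8095, 166 and 11767 counts on HFD. *Rps27rt* received 37, 104 and 49 counts on NCD and 91, 13827 and 121 counts on HFD. In HFD replicate 2 the copy thus held 98.8% of the reads counted on the pair, and in the other 5 libraries it held between 0.640% and 1.16%. Summed over the pair, the level was 176, 150 and 133 CPM on NCD and 142, 168 and 190 CPM on HFD, where HFD replicate 2 lay between the other HFD mice. The log2 fold change was -0.46 (standard error 1.22) for *Rps27* alone and 0.12 (standard error 0.19, 95% interval -0.34 to 0.59, edgeR adjusted p = 0.695) for the sum. *Rps27l*, with no copy in the annotation at this identity, was measured at 110, 64.5 and 56.8 CPM on NCD and at 60.5, 71.6 and 82.5 CPM on HFD, and HFD replicate 2 did not stand apart.

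*Rpl26* (NCBI gene 19941, chr11:68901566-68904534) and *Rpl34* (NCBI gene 68436, chr3:130726827-130730398) had far fewer counts than their copies in every library. The copy of *Rpl26*, *Gm15772* (chr5:3236390-3236928), is annotated in RefSeq as a transcribed pseudogene and matches 436 of 438 coding bases. That of *Rpl34*, *Rpl34-ps1* (chr6:71124589-71125001), is annotated there as protein-coding and matches 352 of 354. The stretches that hold all the differing bases are shown, from coding base 165 to 300 for *Rpl26* and from 120 to 330 for *Rpl34*, with those bases in capitals.
Rpl26: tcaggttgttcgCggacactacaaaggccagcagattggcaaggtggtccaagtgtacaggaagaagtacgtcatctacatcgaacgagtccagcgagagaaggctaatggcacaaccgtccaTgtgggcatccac
Gm15772: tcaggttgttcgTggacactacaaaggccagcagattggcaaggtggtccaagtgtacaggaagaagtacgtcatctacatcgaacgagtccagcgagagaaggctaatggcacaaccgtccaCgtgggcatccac
Rpl34: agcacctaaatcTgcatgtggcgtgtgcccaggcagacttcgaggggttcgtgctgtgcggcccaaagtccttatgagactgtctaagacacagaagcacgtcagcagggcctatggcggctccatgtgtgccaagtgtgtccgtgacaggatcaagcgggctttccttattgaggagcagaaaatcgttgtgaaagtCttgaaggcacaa
Rpl34-ps1: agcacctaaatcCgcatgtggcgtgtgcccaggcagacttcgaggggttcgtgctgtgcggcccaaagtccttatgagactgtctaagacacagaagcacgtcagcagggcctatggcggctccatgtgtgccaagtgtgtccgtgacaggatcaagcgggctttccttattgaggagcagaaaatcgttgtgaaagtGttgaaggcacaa

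*Rpl26* received 16, 46 and 32 counts on NCD and 32, 32 and 45 counts on HFD, while *Gm15772* received 12550, 15190 and 13995 on NCD and 14427, 21074 and 18365 on HFD. Their sum was 383, 255 and 261 CPM on NCD and 251, 253 and 293 CPM on HFD, a level of the same order as the other members. *Rpl34* received 494, 444 and 309 counts on NCD and 404, 790 and 808 counts on HFD, and *Rpl34-ps1* held between 92.8% and 95.6% of the counts of that pair in every library. With the copies added, the log2 fold change without NCD replicate 1 was 0.06 for *Rpl26* (95% interval -0.30 to 0.41, edgeR adjusted p = 0.799) and 0.36 for *Rpl34* (-0.09 to 0.81, edgeR adjusted p = 0.205), where the genes alone gave -0.29 and 0.59. The counts of 14 copies were added to 13 members. The other 3, *Rpl21*, *Rplp2* and *Rpl32*, have their copy in the row of a gene with a name of its own (*BC004004*, *Wdr89* and *Rpl32l*) and were left as they were. With these sums, no interval reached past 2-fold without NCD replicate 1 for any of the 77 members, and edgeR again called 0 of them. For the other 10 of these 13 members, a copy held at most 1.90% of the counts of the pair. How reads that match several places were assigned was not stated, and its part in these counts was not tested.

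**Figure D3:**
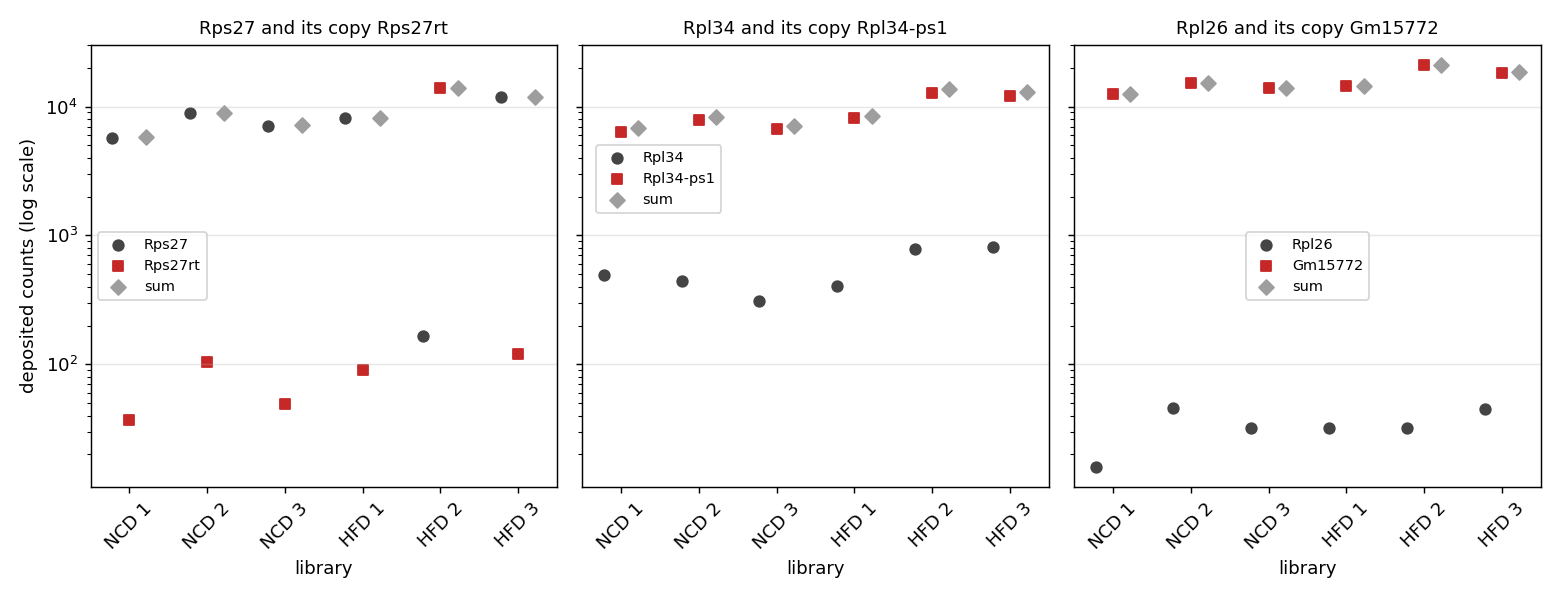
Deposited counts (log scale) of *Rps27*, *Rpl34* and *Rpl26*, of their copies and of the sums in each library. In HFD replicate 2 *Rps27* had 166 counts and *Rps27rt* 13827, while for the other pairs the copy held nearly all counts in every library.

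The starts of the members were read from RefSeq sequences on GRCm38.p6, which covered 60 of the 80 members with 72 start sites. A run of at least 5 pyrimidines that begins with C, within 10 bases of the annotated start, was found at 55.6% of the 72 starts, against 30.7% of the 32851 starts of all genes. In the window from 250 bases before to 50 bases after the start, the ETS motif CCGGAAG stood on either strand at 36.1% of member starts and 8.86% of all starts, the YY1 motif AAGATGG at 15.3% and 6.34%, the SP motif GGGCGG at 56.9% and 35.7%, and TATAAA at 9.72% and 13.6%. Annotated starts can lie some bases from the true start, so the run is a description of the letters. In the windows shown, capitals mark the first run found from 10 bases before the annotated start onwards. The marked run has 9 to 14 bases in 5 members, and 5, 5 and 7 in *Rps27*, *Rps18* and *Rps19*. In *Rps27* and *Rps18* a longer run, left in lower case, follows after a single g and covers the annotated start. Windows of 30 bases are shown with the annotated start at base 16. They lie at chr7:45128731-45128760 (minus strand) for *Rpl13a*, at chr9:120571502-120571531 (plus strand) for *Rpl14*, at chr3:130730323-130730352 (minus strand) for *Rpl34*, at chr16:33056467-33056496 (plus strand) for *Rpl35a*, at chr7:141447636-141447665 (plus strand) for *Rplp2*, at chr3:90213634-90213663 (minus strand) for *Rps27*, at chr17:33955651-33955680 (minus strand) for *Rps18* and at chr7:24884898-24884927 (plus strand) for *Rps19*. The run of *Rpl13a* goes on past its window. In *Rpl34* the bases before the marked run are pyrimidines too, up to the left edge of the window. By the same search *Rpl34* has another annotated start with a marked run of 6, and *Rpl19* has starts with marked runs of 5 and 9.
Rpl13a: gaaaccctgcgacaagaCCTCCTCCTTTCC
Rpl14: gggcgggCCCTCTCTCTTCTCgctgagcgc
Rpl34: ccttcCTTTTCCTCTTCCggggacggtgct
Rpl35a: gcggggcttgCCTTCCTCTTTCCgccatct
Rplp2: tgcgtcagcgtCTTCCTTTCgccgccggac
Rps27: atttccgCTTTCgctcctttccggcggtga
Rps18: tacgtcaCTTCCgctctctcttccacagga
Rps19: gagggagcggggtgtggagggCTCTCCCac

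By subunit, the medians of the members moved together from mouse to mouse. Values are the median deviation of log2(CPM + 1) from the mean of each gene over the 3 HFD mice. The HFD mice therefore centre on this reference by construction. The 43 large subunit genes without the stalk had 0.40, -0.04 and -0.14 on NCD and -0.11, -0.05 and 0.17 on HFD. The 31 small subunit genes stood at 0.31, -0.12 and -0.16 on NCD and at -0.15, -0.05 and 0.21 on HFD. The difference between the subunits, large minus small, was 0.07 ± 0.04 for the NCD mice (SD, n = 3) and 0.00 ± 0.04 for the HFD mice (SD, n = 3), with an exact permutation p of 0.2, and the gap between the diets (HFD minus NCD) was -0.06 with all mice and -0.05 without NCD replicate 1. The spread of a member within a diet, as the median SD of log2(CPM + 1), was 0.30 over the 3 NCD mice and 0.18 over the 3 HFD mice, beside 0.31 and 0.17 over all genes tested. In NCD replicates 2 and 3 alone it was 0.08, beside 0.12.

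The 77 mitochondrial ribosomal protein genes, which are made in the cytosol and serve the ribosome that translates mitochondrial mRNAs, had another pattern. Their median deviation was 0.01, 0.40 and 0.49 on NCD and -0.07, 0.00 and 0.06 on HFD, so NCD replicate 1 lay among the HFD mice. With all mice edgeR called 3 of the 77 lower and 0 higher on HFD, and without NCD replicate 1 it called 32 lower and 0 higher, beside 1.90% and 10.1% of all genes called lower. Their median log2 fold change was -0.32 and -0.43 in these fits, where the cytosolic members had -0.08 and 0.14. The difference between the sets per mouse, cytosolic minus mitochondrial, was 0.38, -0.49 and -0.64 on NCD and -0.07, -0.05 and 0.13 on HFD. The exact permutation test of that difference gave p = 0.5, and its gap between the diets was 0.26 with all mice and 0.57 without NCD replicate 1, where every HFD mouse lay above NCD replicates 2 and 3.

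**Figure D4:**
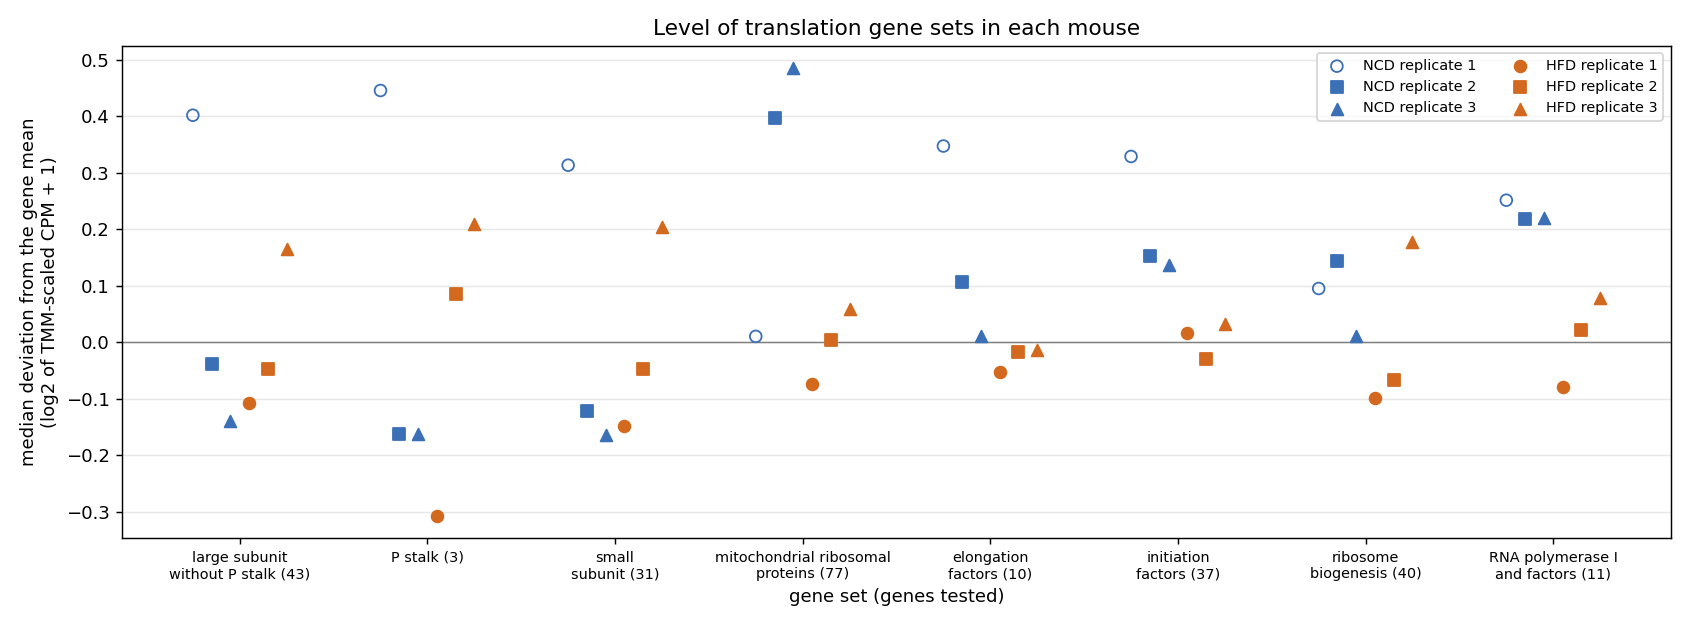
Median deviation of log2(TMM-scaled CPM + 1) from the mean of each gene over the HFD mice, with a point for each mouse. Shown are the members by subunit and other translation gene sets. NCD replicate 1 is highest for the large subunit, P stalk and small subunit genes (0.40, 0.45 and 0.31) and near 0 for the mitochondrial ribosomal proteins.

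Other genes of the translation machinery mostly did not pass the test either. The shares of all genes beside these counts are 5.58% higher and 1.90% lower with all mice, 10.7% higher and 10.1% lower without NCD replicate 1, and 29.7% at an unadjusted p under 0.05 with all mice. Of 10 elongation genes, 1 was higher with all mice, and 1 was higher and 1 lower without NCD replicate 1. *Eef1a2*, the elongation factor form known from muscle and neurons, rose from 0, 4 and 2 counts on NCD to 50, 48 and 20 counts on HFD (edgeR adjusted p = 0.0496), a call that was lost with the ribosomal protein total and in limma, where the smallest adjusted p of the list was 0.0727 and 0.0900, and *Eef2k*, the kinase that inhibits elongation factor 2, fell by a log2 of 0.80 without NCD replicate 1 (edgeR adjusted p = 0.0172). The common factors *Eef1a1* and *Eef2* had log2 fold changes of 0.01 and -0.07 in that fit (edgeR adjusted p = 0.976 and 0.827). Of 37 initiation genes 0 passed with all mice, where 6 had an unadjusted p under 0.05. In the fit of the other 5 mice, 2 of the 37 were lower, *Eif2b3* (-0.94, edgeR adjusted p = 0.0161), a subunit of the exchange factor for eIF2, and *Eif3l* (-0.60, edgeR adjusted p = 0.0204). Of 40 ribosome biogenesis genes, 0 passed with all mice, with 3 at an unadjusted p under 0.05. Without NCD replicate 1, *Tcof1*, the nucleolar cofactor of rRNA transcription, was higher (0.73) and *Nol6* and *Rcl1*, which act in small subunit processing, were lower (edgeR adjusted p = 0.00611 and 0.00903). Of 11 genes of RNA polymerase I and its factors, 0 passed with all mice, with 2 at an unadjusted p under 0.05, and *Polr1d* was lower without NCD replicate 1 (-0.56). Where members of these lists are called in the fit without NCD replicate 1 alone, the difference between the fits was not tested.

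The regulators were read in the same way, against the same shares of all genes. Of 15 genes of the mTORC1, LARP1 and MYC list, 0 passed with all mice, with 3 at an unadjusted p under 0.05. Without NCD replicate 1 *Eif4ebp1* and *Eif4ebp2*, repressors of cap-dependent translation, were lower (-0.76 and -0.59, edgeR adjusted p = 0.0395 and 0.0472). Of 15 other genes with TOP mRNAs, 0 passed with all mice, with 2 at an unadjusted p under 0.05, and only *Vim*, the mesenchymal intermediate filament, was higher without NCD replicate 1 (1.04, edgeR adjusted p = 0.0427), at 949 and 810 CPM in NCD replicates 2 and 3 and 2211, 1638 and 1523 CPM on HFD.

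The members used as reference genes in quantitative PCR were set beside other reference genes. *Rpl13a* was measured at 493, 419 and 396 CPM on NCD and at 355, 453 and 558 CPM on HFD, with the highest mouse 1.57-fold above the lowest. *Rpl19* was measured at 517, 366 and 359 CPM on NCD and at 362, 371 and 416 CPM on HFD, *Rps18* at 409, 314 and 263 CPM on NCD and at 269, 289 and 342 CPM on HFD. Among the 5 mice other than NCD replicate 1, the highest stood 1.16-fold above the lowest for *Rpl19*, 1.27-fold for *Rpl32*, 1.30-fold for *Rps18*, 1.35-fold for *Rplp0* and 1.57-fold for *Rpl13a*. With NCD replicate 1 the same fold was 1.44 for *Rpl19*, 1.56 for *Rps18*, 2.15 for *Rpl32* and 2.74 for *Rplp0*. The corresponding folds among the 5 mice were 1.29 for *Ppia*, the reference the study used for its own assays, 2.87 for *Actb* and 2.20 for *Gapdh*. Among all 6 mice the folds of *Ppia*, *Actb* and *Gapdh* were 1.68, 3.81 and 2.36. In the fit of the 5 mice *Actb* was higher on HFD (log2 fold change 1.20, edgeR adjusted p = 0.0378) and *Gapdh* lower (-1.07, edgeR adjusted p = 0.00931), while with all mice neither passed (edgeR adjusted p = 0.0779 and 0.209). *B2m*, *Hprt* and *Tbp* had folds of 1.48, 1.70 and 1.26 among the 5 mice and of 6.17, 3.19 and 1.26 among all 6, and passed in neither fit. None of the 5 ribosomal protein references, nor *Ppia*, passed in these fits, and those with all mice reached from -0.53 for *Rpl32* to 0.06 for *Rpl13a*.

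**Figure D5:**
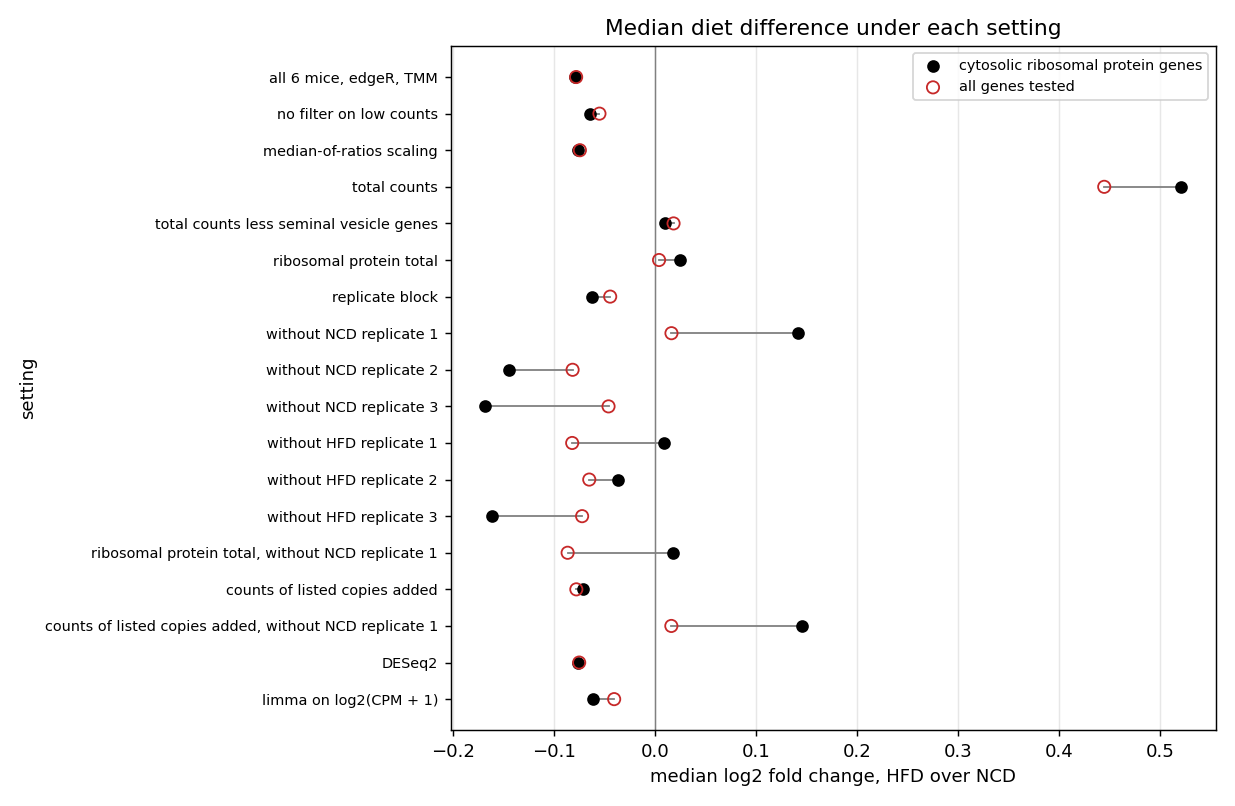
Median log2 fold change (HFD over NCD) of the tested members (filled) and of all genes tested (open) under each setting of mice, scaling and test. The members lie near the median of all genes with all mice (-0.08) and above it without NCD replicate 1 (0.14 against 0.02), and total counts without further scaling give 0.52.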

How the data were processed

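Values were the raw counts of reads per gene that the authors deposited, without normalization. The labels' processing notes name bcl2fastq 2.20.0, Trimmomatic, HISAT2 2.1.0, StringTie 1.3.4d and the builds mm10 and GRCm38, and libraries were made from TRIzol RNA with a stranded TruSeq mRNA kit. Of 19790 NCBI gene identifiers 19742 were given a symbol from RefSeq GRCm38.p6, and exon lengths came from GENCODE vM21. Low genes were filtered out with filterByExpr (minimum 10, total 15), and the rest were tested by edgeR 4.0.16 (TMM, glmQLFit, R 4.3.3) across all 15241 genes kept, with Benjamini-Hochberg adjustment and a threshold of 0.05. DESeq2 1.42.0 and limma 3.58.1 were alternatives. The common biological coefficient of variation was 0.424, and 0.288 without NCD replicate 1. Copies were found with BLAST 2.17.0. The fit was tested on simulated counts. No mice were duplicates, as pairs within a diet gave chi-square values of 116 to 3597 for each degree of freedom. Intervals cover the spread between mice, and floors counting error only. Named were the reference, stalk, p53-linked, fusion and restricted members, the 5 highest and lowest per length, the 5 highest and lowest relative to the member total, and the 2 largest changes past the threshold in each translation list. The values of 1 gene that this rule names are not reported here. Members and lists were chosen with earlier results of these data known.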

Additional observations from a re-analysis of the deposited data

How the results depend on the processing

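edgeR, DESeq2 and limma called 0 members higher and 0 lower under all 17 alternatives to the fit of all 6 mice. The median log2 fold change of the members, -0.08, moved beyond the spread between mice only with total counts (0.52, where the median of all genes was 0.45), and so did the log2 ratio of the summed level as a share of all counts (0.49, against -0.11). Each mouse left out in turn gave medians from -0.17 to 0.14 and log2 ratios of the summed level from -0.22 to 0.10, and 0 members each time. Deviations of same-numbered mice had correlations of -0.05, -0.02 and -0.02. These cannot show whether mice were paired, and HFD replicate 3 bears another number in the deposited counts. With the replicate block the median was -0.06 and 12 genes of the whole table were called, against 1139. The table gave 803 calls without the filter, 1429 with the seminal vesicle genes out of the total, 172 with the ribosomal protein total, 3904 with DESeq2, and 3234 without NCD replicate 1 against 2, 2, 2, 7 and 4 without each other mouse. Of the 391 values of 23 named members under these alternatives, 38 moved by more than the spread between mice and none became a call. Adding copies and scaling by the member total without NCD replicate 1 were added once the data were known. Depth limits the values of *Rpl3l*, *Rpl39l* and *Rpl32l*, which have few counts. *Rpl26* alone has few counts too, but its copy *Gm15772* held nearly all counts of that pair, and how such reads were assigned was not stated.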
